A study of Danio rerio with 5 samples.

Results

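The Notch pathway and hairy-related genes were followed in whole zebrafish embryos that had been injected with morpholinos, antisense oligomers that block the translation or splicing of a chosen RNA. They were taken as every non-control array probe whose gene symbol names a Notch receptor, a Delta or Jagged ligand, mib1, lfng, or a gene of the her, hes and hey families. This rule found 69 of 43603 probes, which represent 35 of the 13143 genes that have a symbol on the array. Symbols that the rule matches but that no probe carried, namely notchl, jag2a, her15.1, her15.2, her4.2 and her4.3, were not analysed here.

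Control embryos (3 arrays) received 7.5 ng of control morpholino, and knockdown embryos (2 arrays) received 6.25 ng of gata5 morpholino with 1.25 ng of gata6 morpholino. Each dose was given in 1 nl at the 1-cell stage, and total RNA of whole embryos was collected 14 h after fertilization in both groups. The submitters chose this mixture to deplete gata4 as well as gata5 and gata6, the GATA factors of heart and endoderm formation. The strain, the clutch behind each sample and the step that each morpholino blocks are not given in the sources used here, so each p-value reflects only how these samples varied, and that variation may be technical. In whole embryos, fewer cells of a type and less RNA per cell cannot be told apart.

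Notch signalling passes between touching cells. A Delta or Jagged ligand on a cell binds a Notch receptor on its neighbour, and the receptor is cleaved. Its intracellular part enters the nucleus and acts there with RBPJ to switch on some of the hairy-related genes, which encode basic helix-loop-helix repressors. Whether each hairy-related gene here responds to Notch was not tested. In a fish embryo that is forming somites, this pathway keeps the segmentation clock of the presomitic mesoderm in step, holds back the differentiation of neural progenitors, and acts in arteries and the heart.

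The array signals give context for the values below. A level is the log2 of the background-subtracted signal relative to the array's 75th percentile, so 0 stands for that percentile, and a difference of 1 is a doubling. Of the non-control probes on an array, 70.1% to 71.1% were well above background in every spot of the probe, and no spot of these probes was saturated. The gata5 and gata6 RNAs were higher in the knockdown (log2 change 1.98 and 2.85) and gata4 RNA was lower (log2 change -0.64), with adjusted p of 0.000191, 5.76e-05 and 0.00519 from limma. RNA of a morpholino's target does not check its block. All control arrays lay on slide 1 and in scan 1 and both knockdown arrays on slide 2 and in scan 2, so slide, scan and injection cannot be told apart. The knockdown arrays differed more from each other than the control arrays did, with a median SD per gene of 0.170 against 0.0654.

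Of the 35 genes, 32 were well above background on all 5 arrays and were tested, and none of them passed. The test was limma with a Benjamini-Hochberg adjusted p under 0.05 over 10791 genes, of which 1620 (15.0%) passed, 846 higher and 774 lower in the knockdown. The smallest adjusted p in the set was 0.0965, for her1. At an unadjusted p under 0.05 there were 3 genes, her1, jag1b and her2, which is 9.38% of the tested members, against 31.8% of all genes. Both knockdown arrays were outside the control range in the same direction for 10 of the 32 genes, 4 above and 6 below, whereas 50.8% of all genes did so.

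The fitted log2 changes of the 32 genes ran from -0.55 for jag1b to 0.38 for her2, with a median of -0.09 beside 0.04 over all genes tested. No fitted change reached 1.5-fold, and 22 of the 32 (68.8%) had a fitted change under 0.25 in size, against 60.2% of all genes. The unadjusted 95% interval of the change lay within 2-fold in either direction for 29 members (90.6%) and within 1.5-fold for 17 (53.1%). Among all genes these shares were 88.6% and 61.4%. The 3 genes whose interval reached past 2-fold were jag1b, notch1a and notch3.

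**Figure D1:**
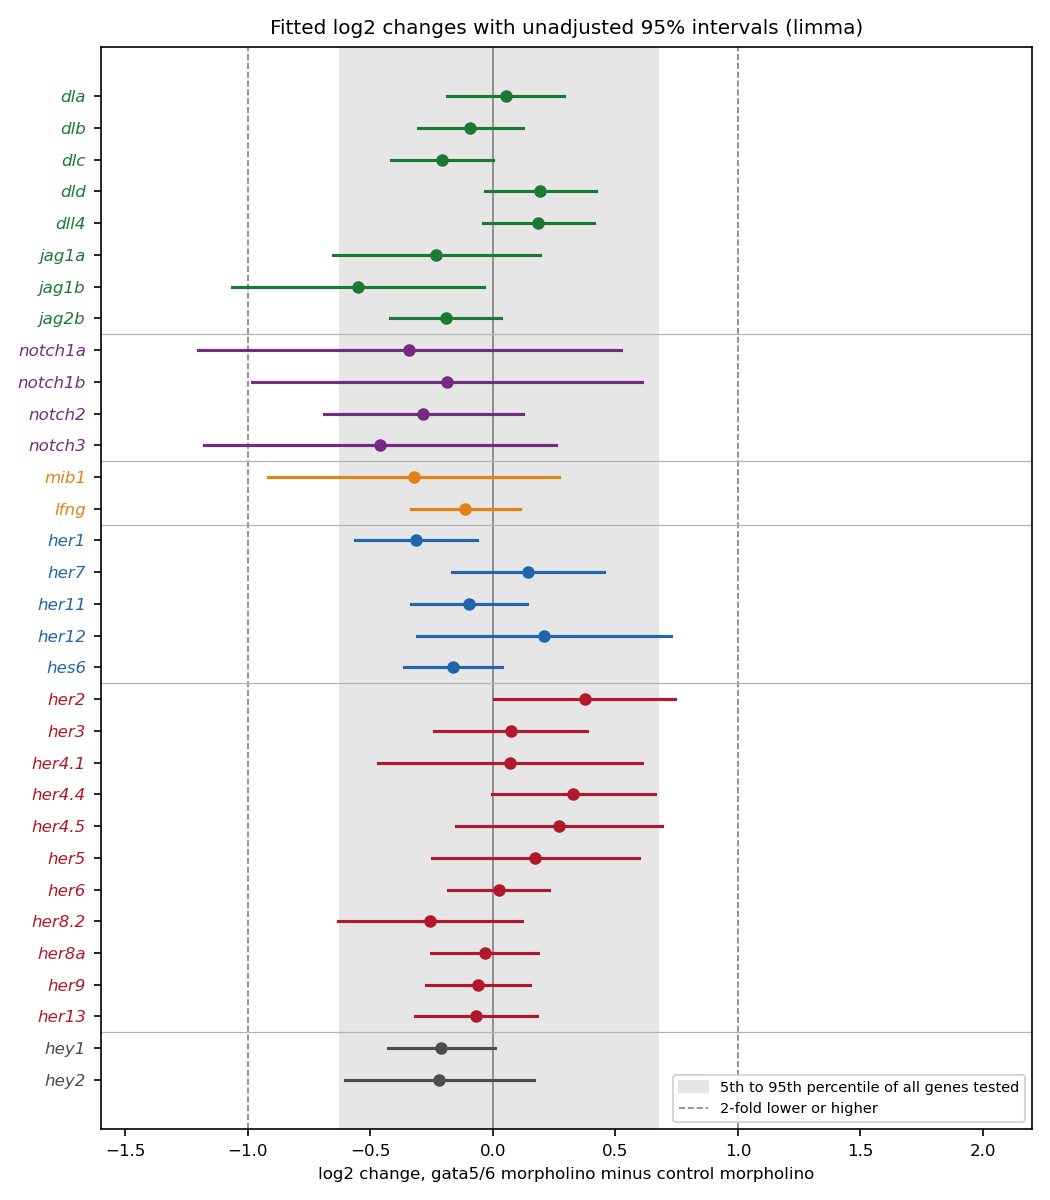
Fitted log2 change of each tested gene, knockdown minus control (point), with its unadjusted 95% interval (line), coloured by role as ligand, receptor, modifier and effectors from top to bottom. The grey band spans the 5th to the 95th percentile of all 10791 genes tested, dashed lines mark 2-fold, and the intervals of jag1b, her1 and her2 leave out 0 although no gene passed after adjustment.

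The ligand genes gave 5 changes below 0 and 3 above, with a median of -0.14. In their brightest probes the Delta genes dla and dlb, which act in neurogenesis, were close to their controls. The dla level was -0.05, -0.05 and -0.08 in controls and -0.12 and 0.10 in the knockdown (log2 change 0.05, SE 0.0977, adjusted p = 0.743). Its knockdown arrays lay on either side of the control arrays. The dlb level was 1.19, 1.115 and 1.101 in controls and 1.102 and 0.98 in the knockdown (log2 change -0.09, SE 0.0875, adjusted p = 0.513), and the groups overlapped. A second, dimmer dlb probe was at -0.60, -0.60 and -0.63 in controls and -0.80 and -0.87 in the knockdown, with no overlap. Tested by itself with limma, it had a log2 change of -0.22 (adjusted p = 0.171).

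The Delta genes dlc and dld, which serve both the segmentation clock and neurogenesis, stood on opposite sides of their controls. The dlc level was 1.54, 1.502 and 1.44 in controls and 1.24 and 1.33 in the knockdown (log2 change -0.21, SE 0.0853, adjusted p = 0.161). The dld level was 3.49, 3.37 and 3.33 in controls and 3.63 and 3.55 in the knockdown (log2 change 0.19, SE 0.0919, adjusted p = 0.210). In the brightest probe of neither gene did the groups overlap, with both knockdown arrays below the controls for dlc and above them for dld. A second, dimmer dlc probe had a log2 change of -0.12, and its groups overlapped. The gene dll4, whose product is the Delta ligand of arteries, was at -5.16, -5.19 and -5.07 in controls and -5.03 and -4.89 in the knockdown (log2 change 0.19, SE 0.0925, adjusted p = 0.230). Its groups did not overlap either, but it had only 1 probe and was dim. The lowest levels well above background were -5.74 to -5.54, depending on the array. With the default normexp background correction, an alternative, its change was below 0.

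The Jagged genes all had fitted changes below 0. The jag1b level was 1.03, 0.93 and 0.95 in controls and 0.06 and 0.78 in the knockdown, which gave the change of largest size among the 32 genes (log2 change -0.55, SE 0.209, interval -1.06 to -0.03, adjusted p = 0.137). Both knockdown arrays were below all controls, but replicate 1 was 0.91 below the control mean and replicate 2 only 0.19 below it. The jag2b level was 2.14, 2.08 and 2.13 in controls and 1.83 and 2.01 in the knockdown (log2 change -0.19, SE 0.0927, adjusted p = 0.216), again with no overlap. The jag1a level was -0.31, -0.36 and -0.37 in controls and -0.86 and -0.29 in the knockdown (log2 change -0.23, SE 0.172, adjusted p = 0.4003). In this brightest jag1a probe replicate 1 alone was low and replicate 2 was above every control array. A second probe had a log2 change of -0.32, with both knockdown arrays below all controls. In the third, replicate 1 was low and replicate 2 lay inside the control range.

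All 4 receptor genes had fitted changes below 0, with a median of -0.31, and for each of them that value came from replicate 1. The notch1a level, of the receptor that somite formation needs, was 1.06, 1.34 and 1.25 in controls and 0.25 and 1.51 in the knockdown (log2 change -0.34, SE 0.351, interval -1.20 to 0.52, adjusted p = 0.543). The notch1b level was -1.66, -1.17 and -1.46 in controls and -2.16 and -1.08 in the knockdown (log2 change -0.19, SE 0.324, adjusted p = 0.725). In the brightest probe of both genes replicate 1 was below every control array and replicate 2 above every one. In each of their other probes a knockdown array lay inside the control range. It was replicate 2 in the other notch1a probe and in a notch1b probe, and replicate 1 in the dimmest notch1b probe.

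The notch2 level was 0.60, 0.68 and 0.68 in controls and 0.10 and 0.64 in the knockdown (log2 change -0.28, SE 0.165, adjusted p = 0.291). The notch3 level was 2.25, 2.40 and 2.28 in controls and 1.33 and 2.38 in the knockdown (log2 change -0.46, SE 0.293, interval -1.18 to 0.26, adjusted p = 0.329). In the brightest probe of each of these genes replicate 2 lay inside the control range and replicate 1 far below it. In their other probes replicate 2 was above every control array and replicate 1 below every one. In the dimmest notch2 probe replicate 1 was only just below the controls. Over the 4 receptors, the median distance from the control mean was -0.85 in replicate 1 and 0.18 in replicate 2.

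The modifier genes act on the ligand or the receptor. The ubiquitin ligase gene mib1, whose product lets the signalling cell take up its ligand, was at -1.77, -1.77 and -1.98 in controls and -2.58 and -1.75 in the knockdown (log2 change -0.32, SE 0.242, adjusted p = 0.402). It showed the pattern of the receptors, with replicate 1 low and replicate 2 at the level of the highest controls. The glycosyltransferase gene lfng, whose product changes which ligand a receptor answers to, was at 5.93, 5.84 and 5.96 in controls and 5.86 and 5.74 in the knockdown (log2 change -0.11, SE 0.0905, adjusted p = 0.433). In this brightest lfng probe only replicate 2 left the control range. In a second probe only replicate 1 left it, and in the third the knockdown arrays lay on opposite sides of it.

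**Figure D2:**
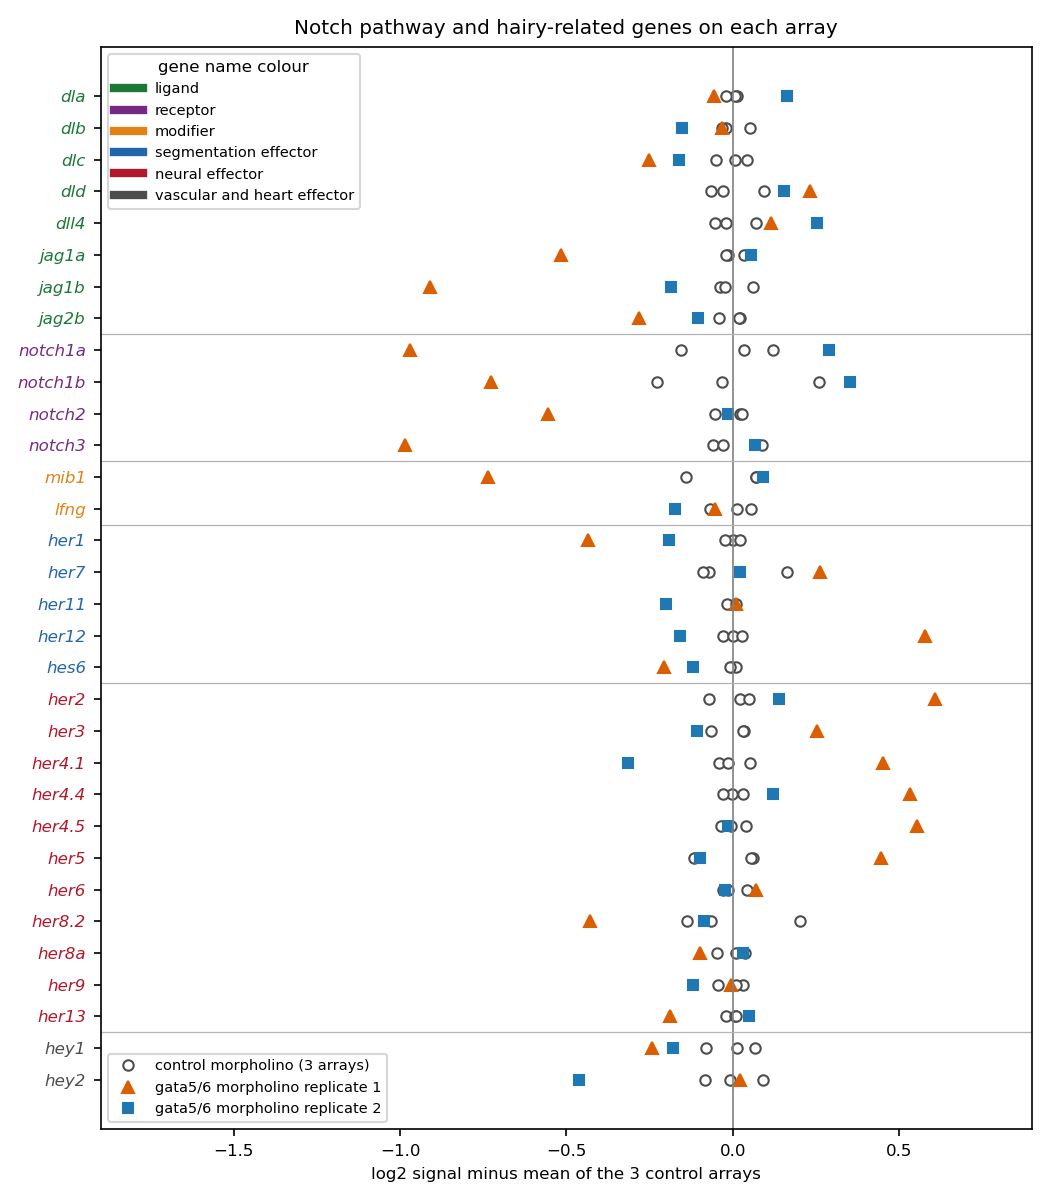
Log2 signal of each tested gene on each array, minus the mean of the 3 control arrays (horizontal axis), with genes ordered and coloured by role. Open circles are control arrays, triangles knockdown replicate 1 and squares knockdown replicate 2; triangles of all 4 notch genes lie at least 0.55 below the control mean, and those of her12, her4.1, her4.4 and her4.5 at least 0.45 above it, while the squares stay nearer the controls.

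Among the 5 effector genes of the segmentation clock, 3 had changes below 0 and 2 above, with a median of -0.10. The cyclic gene her1, whose protein represses its own transcription to drive the clock, was at 1.34, 1.36 and 1.32 in controls and 0.90 and 1.15 in the knockdown (log2 change -0.31, SE 0.102, interval -0.56 to -0.06, adjusted p = 0.0965). Both knockdown arrays were below all controls. A second, dimmer her1 probe had a log2 change of -0.16, and its groups overlapped. A repaired normexp background correction was an alternative added after the data were seen. With it, her1 passed (log2 change -0.49, limma adjusted p = 0.00765), as did jag2b (log2 change -0.28, adjusted p = 0.0450). These were 2 of the 32 tested members, beside 14.4% of all genes.

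The gene her7, the partner of her1 in the clock and its neighbour on the chromosome, was at 0.07, 0.31 and 0.06 in controls and 0.41 and 0.17 in the knockdown (log2 change 0.14, SE 0.126, adjusted p = 0.475). In this brightest probe replicate 2 lay inside the control range, and the fitted change had the opposite sign to that of her1. A second her7 probe had a log2 change of 0.0009, with replicate 2 below every control array. The gene hes6, whose product pairs with the clock repressors, was at 3.80, 3.81 and 3.79 in controls and 3.59 and 3.68 in the knockdown (log2 change -0.16, adjusted p = 0.231). Its groups did not overlap. The changes of the remaining clock genes were -0.10 for her11 and 0.21 for her12, with the knockdown arrays of her12 on opposite sides of the controls.

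The 11 effector genes known mainly from the neural plate had fitted changes from -0.26 to 0.38, 7 of them above 0, with a median of 0.07. The choice of those given array by array here was made with their values in view. For her2 the level was 3.67, 3.69 and 3.57 in controls and 4.25 and 3.78 in the knockdown (log2 change 0.38, SE 0.151, adjusted p = 0.153). Both arrays were above all controls, replicate 1 by far the more. The gene her4.4, of a family that Notch switches on in neural progenitors, was at 2.92, 2.89 and 2.86 in controls and 3.42 and 3.01 in the knockdown (log2 change 0.33, SE 0.135, adjusted p = 0.161). Its neighbour her4.5 had a log2 change of 0.27 (adjusted p = 0.327), and the related her4.1 had 0.07 (adjusted p = 0.853). The her4 copies are close in sequence and the probes may not tell them apart, so these values are uncertain for any single copy.

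The gene her5, which keeps a pool of progenitors at the boundary of midbrain and hindbrain, had a log2 change of 0.17 (adjusted p = 0.530). Its neighbour her11 was on the other side of 0. The changes of her6, her9 and her3, which mark other regions of the neural plate, were 0.02, -0.06 and 0.07. The remaining neural genes were all below 0, with -0.26 for her8.2, -0.07 for her13 and -0.03 for her8a. Both knockdown arrays of her8.2 were below the control mean, with replicate 2 inside the control range. Over the 11 neural genes, replicate 1 had a median distance of 0.25 from the control mean and replicate 2 of -0.02.

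The hey genes encode repressors of arteries, heart and other mesoderm. The hey1 level was 3.69, 3.55 and 3.64 in controls and 3.38 and 3.45 in the knockdown (log2 change -0.21, SE 0.0891, limma adjusted p = 0.171). In this brightest probe the groups did not overlap, with both knockdown arrays below the controls. Some of its other probes did the same. In the dimmest both knockdown arrays lay inside the control range, and in another they lay on opposite sides of it. The hey2 level, of a gene that formation of the aorta needs, was -0.68, -0.51 and -0.61 in controls and -0.58 and -1.06 in the knockdown (log2 change -0.22, SE 0.157, adjusted p = 0.381). For this hey2 probe it was replicate 2 that was low, and replicate 1 lay inside the control range. A second hey2 probe had a log2 change of 0.05, with both knockdown arrays inside the control range. Signals of heyl and hes2.1 never stood well above background. Of hes2.2, 1 of 2 probes was above background on knockdown replicate 1 alone. These 3 genes were not tested in the fit over all 5 arrays.

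The knockdown replicates often lay far apart for these genes. They were on opposite sides of the control mean for 16 of the 32 members (50%), against 33.2% of all genes. They were more than 0.5 apart on the log2 scale for 11 members (34.4%), against 14.7% of all genes. In 7 of the 11 replicate 1 was the lower (jag1a, jag1b, the 4 receptor genes and mib1), and in 4 it was the higher (her12, her4.1, her4.5 and her5). The control arrays spanned more than 0.5 for none of the 32 members, against 5.14% of all genes. Replicate 1 was the farther from the control mean for 25 members (78.1%), and for 64.7% of all genes.

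**Figure D3:**
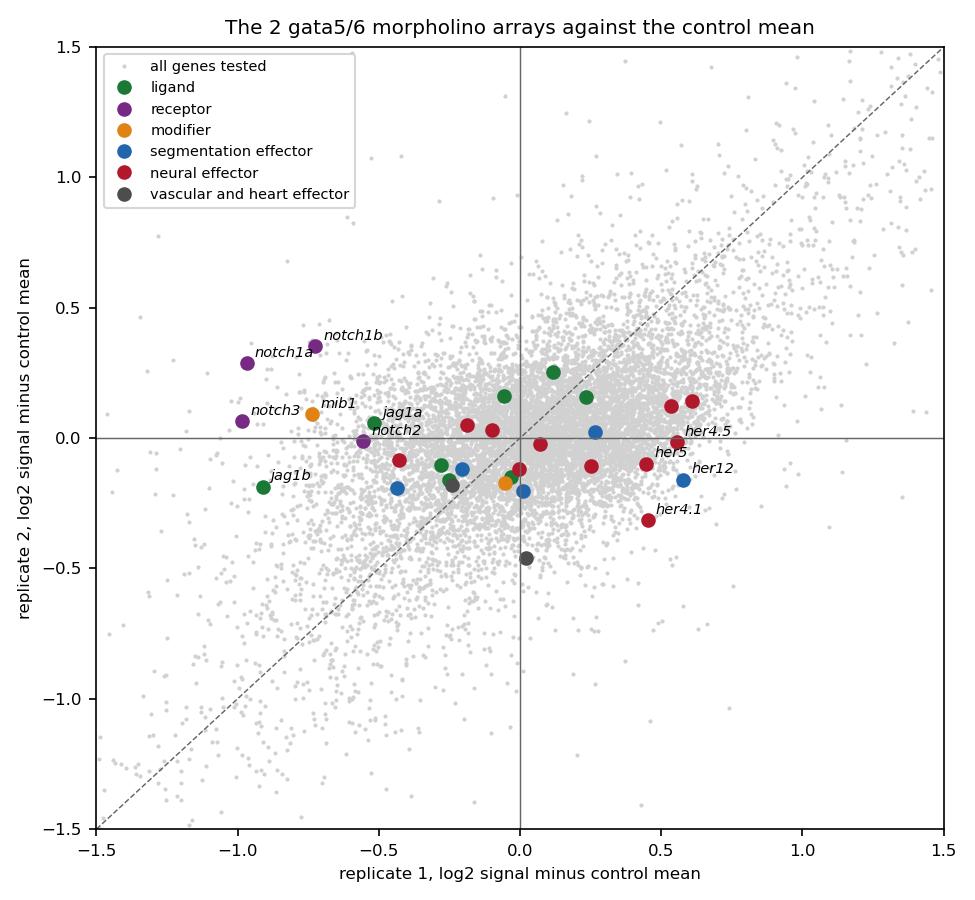
Each tested gene by its log2 signal minus the control mean on knockdown replicate 1 (horizontal) and replicate 2 (vertical), over the range from -1.5 to 1.5; grey points are all genes tested, large points the 32 members coloured by role, and the dashed line marks equal values. Named genes are those with replicates over 0.5 apart: the receptors, mib1, jag1a and jag1b lie left of the dashed line, and her12, her4.1, her4.5 and her5 right of it.

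The calls depended on which knockdown array was used. Without replicate 1, 2 of the 32 members fell, her4.1 (log2 change -0.31, adjusted p = 0.0491) and hey2 (log2 change -0.46, adjusted p = 0.0394), beside 18.7% of all genes. Without replicate 2, 19 of 33 tested members passed, 8 higher and 11 lower, beside 47.8% of all genes. In these fits the lone array is assumed to vary as the controls do. The 11 lower genes were dlc (-0.25), jag1a (-0.52), jag1b (-0.91), jag2b (-0.28), notch1a (-0.97), notch1b (-0.73), notch2 (-0.55), notch3 (-0.98), mib1 (-0.74), her1 (-0.44) and hes6 (-0.21). The 8 higher genes included her2 (0.61), her12 (0.58), her4.5 (0.55), her4.4 (0.53), her4.1 (0.45) and her5 (0.45), together with her3 and hes2.2. The gene hes2.2 entered this fit only through its probe above background on replicate 1 alone, so the filter set its direction and its call is no result. The gene her4.1 passed in both fits, in opposite directions. These fits used the brightest probe of each gene. On replicate 2 a second hey2 probe was 0.07 above its control mean, and a second her4.1 probe was 0.12 below its own. What differs between the knockdown samples was not tested.

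Several probes were available for most of these genes. None of the 64 tested member probes passed when every probe was tested by itself, beside 11.7% of all probes, and 8 had an unadjusted p under 0.05, beside 28.6% of all probes. The smallest adjusted p was 0.0670, for a hey1 probe with a log2 change of -0.41. Of 23 genes with more than 1 tested probe, 18 had the same sign in all of them. The exceptions were her13, her6, hey2, lfng and notch1b. The 3 probes of jag1b ran from -0.55 to -0.37, the 3 of mib1 from -0.32 to -0.18, the 5 of hey1 from -0.41 to -0.02, and the 2 of her2 were 0.38 and 0.45. The gap between the knockdown replicates was shared by the probes of some genes and not of others. In all 10 receptor probes replicate 1 was below replicate 2, in 9 of them by more than 0.5, with a range of -1.58 to -0.42. In both probes of her4.1 and both of her5 it was above replicate 2 by more than 0.5. The gap was over 0.5 in only 1 of 3 probes of jag1a and in 2 of 3 of jag1b and of mib1. Its sign differed between the probes of her13, hes6, hey2 and lfng. Shares over all probes are not given here for these gaps.

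**Figure D4:**
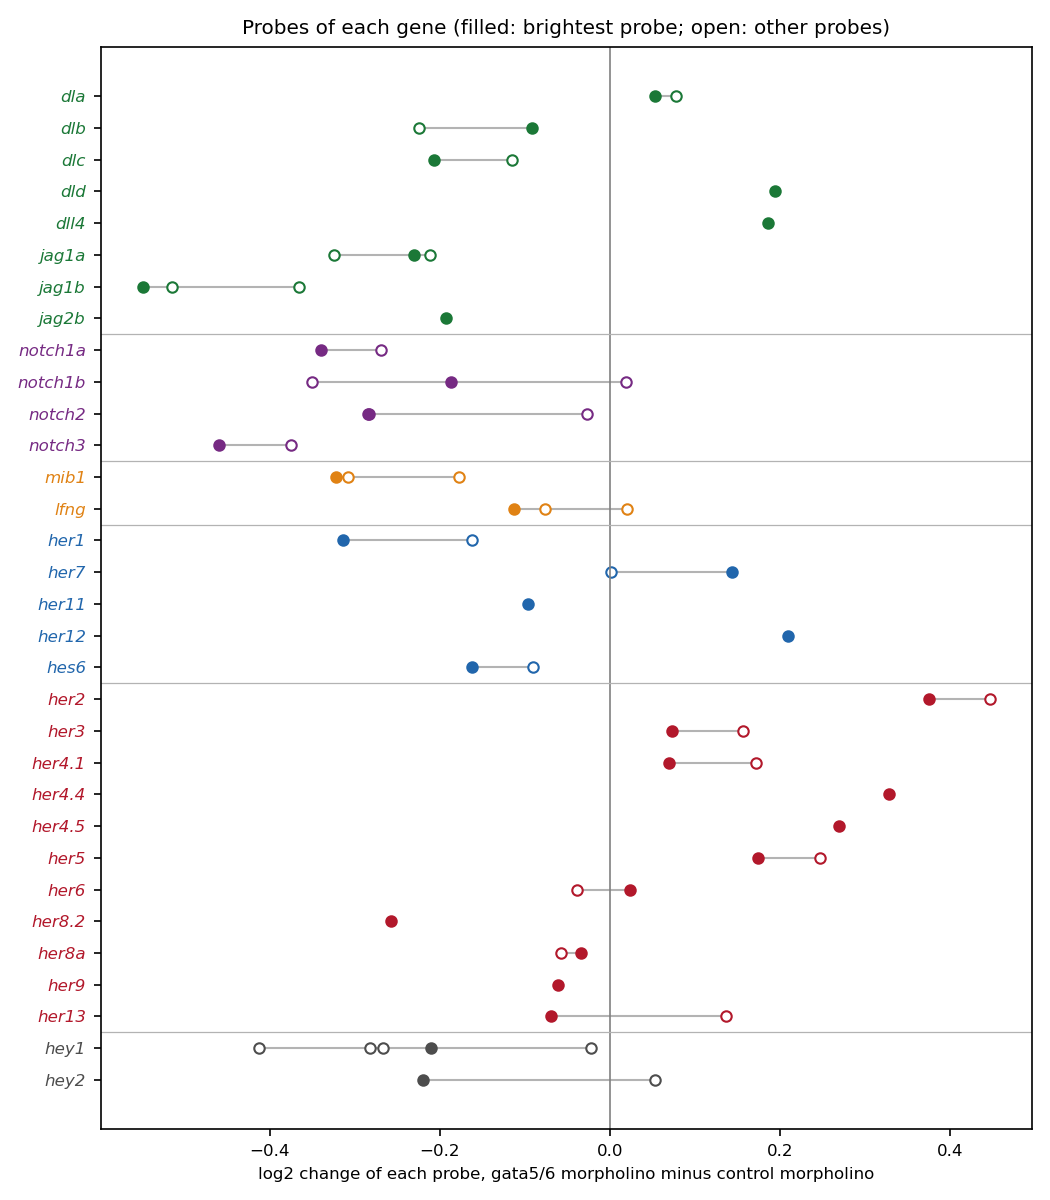
Fitted log2 change, knockdown minus control, of each tested probe of each gene (horizontal axis), with the brightest probe filled and the others open, joined by a line per gene. The probes of jag1b, notch3 and mib1 all lie below 0 and those of her2 and her5 above it, while lines of her13, her6, hey2, lfng and notch1b cross 0.

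Genes that make the ligand, process the receptor or carry the signal in the nucleus were read from a separate list of 54 symbols. Of these, 36 had a probe and 35 were tested; 1 rose and 3 fell (11.4%, beside 15.0% of all genes), and the median log2 change was -0.07. The convertase gene furina, whose human counterpart cuts Notch during its maturation, was at -0.37, -0.34 and -0.31 in controls and 0.83 and 1.14 in the knockdown. This is a 2.51-fold rise (log2 change 1.33, SE 0.115, adjusted p = 0.00135), with both knockdown arrays far above the controls. A second furina probe gave 1.31 and the dimmest gave -0.37, and the mean over the probes was 0.76. The call was lost with the default normexp background correction (adjusted p = 0.0904).

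The paralogue furinb moved the other way, from -0.43, -0.62 and -0.31 in controls to -1.03 and -1.05 in the knockdown, which is 1.502-fold lower (limma log2 change -0.59 with SE 0.114, adjusted p = 0.0235). The ubiquitin ligase gene neurl1ab, of the Neuralized family that acts on Delta, was at -1.87, -2.10 and -1.86 in controls and -2.53 and -2.48 in the knockdown, which is 1.48-fold lower (limma log2 change -0.56 with SE 0.106, adjusted p = 0.0209). The co-repressor gene ctbp1 was at -0.94, -0.94 and -0.97 in controls and -1.38 and -1.35 in the knockdown, which is 1.33-fold lower (limma log2 change -0.41 with SE 0.0790, adjusted p = 0.0219). In the brightest probe of each of these genes the knockdown replicates were close together and the groups did not overlap. A second, dimmer neurl1ab probe was at -4.63, -4.80 and -4.58 in controls and -4.65 and -5.03 in the knockdown, so its groups overlapped. Tested by itself with limma, it had a log2 change of -0.17 (adjusted p = 0.489). All 3 falls lost their call when the groups were given separate variances (adjusted p = 0.239, 0.206 and 0.123) and without control replicate 1 or control replicate 3 (adjusted p = 0.0964 to 0.126). The calls of furinb and neurl1ab were also lost without knockdown replicate 1 (adjusted p = 0.0548 and 0.0515), and that of ctbp1 without control replicate 2 (adjusted p = 0.103). The central factor genes rbpja and rbpjb had log2 changes of -0.11 (adjusted p = 0.586) and -0.15 (adjusted p = 0.535), and the feedback genes nrarpa and nrarpb of -0.15 (adjusted p = 0.264) and 0.05 (adjusted p = 0.832).

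**Figure D5:**
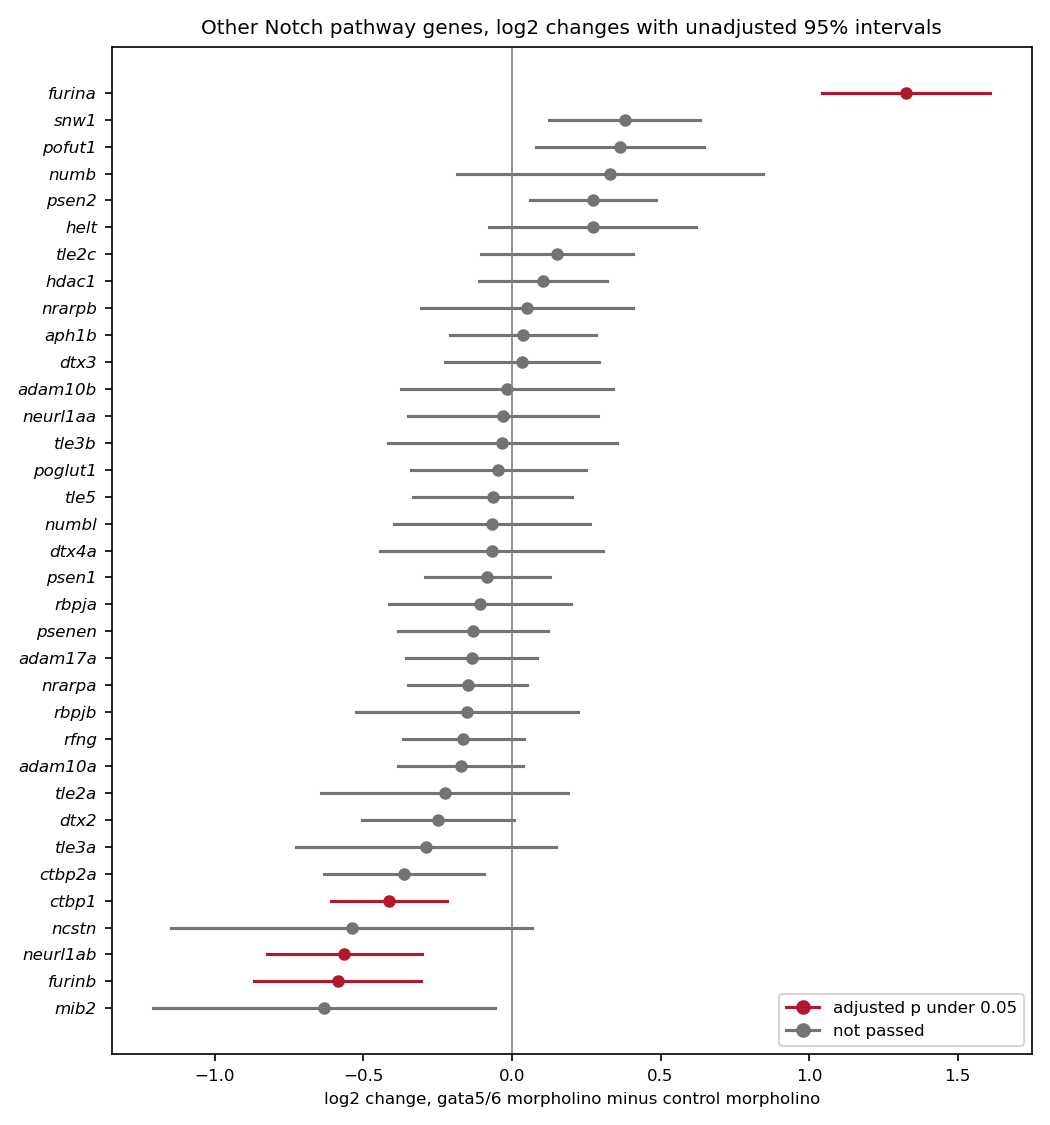
Fitted log2 change, knockdown minus control, of the 35 tested genes of the separate pathway list, with unadjusted 95% intervals, ordered by change. Red marks the 4 genes that passed, furina above 0 and ctbp1, neurl1ab and furinb below it.

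The cell types in which these genes act were read from marker lists, as the summed linear signal of each list relative to the control mean. None of the 7 presomitic mesoderm, 9 somite, 5 neural progenitor or 8 early neuron markers passed, and tbx6 stands in both of the first 2 lists. Over all genes tested 15.0% passed, the share to set beside the count of each list. Their summed signals were 0.95 to 1.13 times the control mean on the knockdown arrays, with presomitic mesoderm at 1.13 in replicate 1 and 0.99 in replicate 2. Of the 7 presomitic mesoderm markers 4 had changes above 0, with a median of 0.01. On replicate 1 the brightest of them, msgn1, was 0.43 above its control mean, and tbx6 was 0.80 below its own. Of 5 tested endothelial markers 2 rose (summed ratios 1.28 and 1.23), namely etsrp and cdh5, the second of which was not well above background in controls. The other 3, tal1, egfl7 and kdrl, did not pass (log2 change 0.23, 0.41 and 0.02). The brightest of the list was tal1, so the summed rise is not that of etsrp and cdh5 alone. All 4 tested heart markers, hand2, nkx2.5, tbx20 and tnnt2a, fell (summed ratios 0.45 and 0.36), and nkx2.5 and tbx20 were not well above background on the knockdown arrays. The summed fall is mostly that of hand2, whose mean control level was 1.90, against -0.90 for tnnt2a, -2.73 for nkx2.5 and -4.26 for tbx20. The probe filter kept nkx2.5 and tbx20 only through the control arrays, and cdh5 only through the knockdown arrays. For nkx2.5, tbx20 and cdh5 the filter thus set the direction, and their calls are no result.

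The other marker lists held 2 genes that rose and 2 that fell, where 15.0% of all genes passed. Of 4 tested pronephros markers cdh17 rose (log2 change 2.34) and lhx1a fell (log2 change -0.68), with summed ratios of 1.26 and 1.42. Only cdh17 was above 0 and the other 3 were below it, with a median of -0.14, so the summed rise is that of cdh17. Of 4 endoderm markers sox32 rose (log2 change 1.66, summed ratios 1.08 and 1.13), and of 3 epidermis markers tp63 fell (log2 change -0.47, summed ratios 0.97 and 0.88). Several of these calls depended on the setting. With the default normexp background correction, calls were lost for etsrp, cdh5, hand2, nkx2.5, tbx20, lhx1a, sox32 and tp63 (adjusted p = 0.160 to 0.923), and cdh5 turned to a log2 change of -0.29. With the repaired correction the changes were 0.28 for cdh5, whose call was lost (adjusted p = 0.0671), -0.98 for nkx2.5, -0.34 for tbx20, -1.89 for tnnt2a, -0.31 for lhx1a and 0.66 for sox32. With separate variances calls were lost for etsrp, cdh5, lhx1a, sox32 and tp63 (adjusted p = 0.0782 to 0.389). The calls of etsrp and tp63 were lost without control replicate 1, 2 or 3, that of lhx1a without control replicate 1 or 2, and that of sox32 without control replicate 2 or 3 or either knockdown replicate. Without the filter on dim probes, the calls of tp63 and sox32 were lost too (limma adjusted p = 0.0808 and 0.0850). The call of tp63 was also lost with quantile normalization, the authors' value table, the mean over probes and the replicate block (limma adjusted p = 0.0514 to 0.115). The part of the shifts in these lists in the values of dll4, notch1b, hey1 and hey2 was not tested.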

How the data were processed

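Cy3-labelled RNA of 5 samples was hybridised to 1-colour Agilent arrays. Per the file headers, the deposited spot intensity was background-subtracted and detrended by Agilent Feature Extraction 10.7.3.1 (10.7.1.1 per the submitters' processing notes) and not scaled between arrays. The deposited value table holds log2 values (column median 6.09) made by a method not given in the sources used here. It correlated with the log2 intensities at 0.9998 or more. Its values are not centred.

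Each array's log2 intensities were reduced by the log2 of its 75th percentile (506 to 574). Control spots and 52 probes with an outlier spot were left out, and 30616 probes were kept, each well above background on all arrays of 1 group or of both. Symbols came from RefSeq accessions (58.7% of probes). The brightest probe represented a gene. The comparison used lmFit and eBayes of limma 3.58.1 under R 4.3.3, with 3 residual degrees of freedom and two-sided p-values. The number of arrays limits the precision. The fit was tested on simulated data whose noise followed the control arrays. The wider spread of the knockdown arrays was not simulated, so that test does not cover it.

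All members were eligible to be named, with full values where they passed and otherwise for ligands, receptors, modifiers, her1, her7 and hey genes; of other pathway genes, those that passed, and rbpja, rbpjb, nrarpa and nrarpb were added after their values were seen. The members and lists were chosen with earlier results of these data known. Alternatives changed the background correction, scaling, probe filter, choice of probe, variance model, replicate block or arrays used. The median log2 change of all genes is 0.04 and moved to -0.047 with default normexp.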

Additional observations from a re-analysis of the deposited data

How the results depend on the processing

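Direction and side of the threshold were kept by most values under most alternatives, and the array left out mattered most. Leaving out each replicate in turn gave 685 to 5262 passing genes, 0 to 19 members and 1 to 16 other pathway genes, and a members' median of -0.092 to -0.052. It gave ranges that cross 0, with the extremes coming from leaving out a gata5/6 morpholino replicate, for dla (-0.057 to 0.16), jag1a (-0.52 to 0.057), notch1a (-0.97 to 0.29), notch1b (-0.73 to 0.35), notch3 (-0.98 to 0.066), mib1 (-0.74 to 0.091), her11 (-0.20 to 0.010), her12 (-0.16 to 0.58), her3 (-0.11 to 0.25), her4.1 (-0.31 to 0.45), her4.5 (-0.015 to 0.55), her5 (-0.10 to 0.45), her6 (-0.023 to 0.071), her8a (-0.10 to 0.032), her13 (-0.19 to 0.050) and hey2 (-0.46 to 0.022). Every probe tested by itself gave 3587 passing probes. A variance for each group gave 547 passing genes (290 higher, 257 lower) and 1 other pathway gene, furina. Default normexp, offset 50, gave 42 (19 higher, 23 lower), no member, no other pathway gene, a members' median of -0.042, and -0.35 for dll4, 0.093 for her8a and 0.088 for her9. The repaired fit, chosen after seeing the data, left out 4 spots more than 100 units below background. It gave 2 members (her1 and jag2b), beside 14.4% of all genes, and changes of -0.0094 for her4.1 and 0.053 for her8.2. The members' median was -0.12 with quantile normalization and with the authors' table, -0.070 with no filter and -0.072 with the mean over probes. The change of her6 was -0.024 with quantile normalization, -0.025 with the authors' table and -0.0076 with the mean over probes, which also gave 0.033 for her13. The call of neurl1ab was lost with the mean over probes (adjusted p = 0.0889). With the replicate block, 938 genes were higher and 849 lower, 1 member fell (jag1b, adjusted p = 0.0182), and the call of ctbp1 was lost (adjusted p = 0.0833). Only 2 numbers are shared and the labels do not pair the samples, so the numbers were not taken as pairs. Deviations of same-numbered arrays correlated at 0.12 and 0.20, and those of other pairs at -0.20 to 0.09. The deviations of the 2 knockdown arrays mirror each other, so these correlations are not separate values and cannot decide on pairing. Causes other than those stated were not tested.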
